A study of Mus musculus with 24 samples.

Results

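Mouse splenic follicular B cells were compared 6 h after stimulation through their antigen receptor and CD40 with the same kind of cell left unstimulated. The stimulated group was 3 arrays of sorted cells that received 10 μg/ml of an F(ab')2 antibody against mouse IgM together with 2 μg/ml of a rat monoclonal antibody against mouse CD40. The unstimulated group was 3 arrays of sorted cells that received neither antibody. Members were chosen by their sample labels alone, and together they make up 6 of the 24 arrays in the series. All of these mice were female C57BL/6, 8 to 10 weeks old, and no genotype beyond the strain is given. Magnetic depletion first removed cells bearing CD3 or CD90 (T cells), CD11b, Gr-1 or the macrophage antigen encoded by Adgre1 (myeloid cells), TER119 (erythroid cells), CD138 (plasma cells), CD43, CD95 or CD5, and the B220+AA4.1-CD21intCD23+ fraction was then sorted. Another group served as a measure of dividing B cells. It was 3 arrays of antigen-binding IgG1+ germinal center B cells, sorted from the spleens of mice of the same strain and sex on day 7 after immunization with NP-CGG in alum. The labels describe no cultured control without antibodies, so the 6 h in culture and the stimulus cannot be told apart. They also do not say whether the 3 arrays of a group came from separate mice, so the p-values rest on spread between arrays. That spread was pooled within the 8 groups of all 24 arrays, and not taken from the compared arrays alone.

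Follicular B cells are the recirculating mature B cells of the spleen and lymph nodes. They rest in G0 until antigen crosslinks their receptor, which activates the kinases Lyn and Syk, calcium entry, MAP kinases and NF-κB. CD40, the receptor for CD40 ligand on helper T cells, adds a second route into both arms of NF-κB. The cells then grow before they first divide, and this growth is known to need Myc. Messenger RNA was measured on Affymetrix mouse whole-genome expression arrays, and every level below is a log2 signal as deposited, so a difference of 1 is a 2-fold change. The values have a floor of 2.15. A gene was represented by its brightest probe set, and a gene is said to be at background in a group where all 3 arrays read at or below the median of all probe sets on that array.

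Of 11208 genes tested, 1891 (16.9%) were called higher in stimulated cells and 2515 (22.4%) lower, at an adjusted p under 0.05 in limma and a log2 change of at least 1. Together these are 39.3% of the genes tested, and for 58.9% the 3 stimulated arrays did not overlap the 3 unstimulated arrays, so single counts below are set against these shares. Rises made up 42.9% of the calls on the deposited scale. They made up 56.3% when the arrays were shifted to the same median, where the median change of all genes was 0.30 instead of -0.02, and 52.1% after quantile normalization. The median of all probe sets was 2.52 to 2.86 on the stimulated arrays and 2.41 to 2.56 on the unstimulated arrays. Correlations across genes were 0.961 to 0.983 among stimulated arrays, 0.977 to 0.996 among unstimulated arrays and 0.831 to 0.886 between the groups. B cell markers were high in both groups. Ptprc, which encodes B220, read 12.34 to 12.79 in stimulated and 14.15 to 14.26 in unstimulated cells, and Ms4a1, which encodes CD20, read 13.49 to 13.83 in stimulated and 14.88 to 14.97 in unstimulated cells. In these bulk samples, fewer cells of a type and less RNA per cell cannot be told apart.

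Several of the genes that rose most read near the floor in unstimulated cells. Tent5c, a cytoplasmic poly(A) polymerase, read 12.13, 11.97 and 11.53 in stimulated cells, against 2.30, 2.45 and 2.20 in unstimulated cells. This change of 9.56 ± 0.22 (SE, limma adjusted p = 1.58e-16) was the largest fitted rise. The rises of genes that start at the floor are lower bounds, so the order among them is not settled. The chemokine genes Ccl3 and Ccl4, whose products attract other leukocytes, were also near the top. Ccl4 read 10.83, 11.25 and 12.25 in stimulated cells and 2.15 on every unstimulated array, and Ccl3 read 10.90, 11.38 and 11.93 against 2.15, 2.16 and 2.16. Both were at background without stimulation, so Ccl4 was at least 505-fold higher and Ccl3 at least 491-fold higher (limma adjusted p = 4.96e-08 and 4.09e-05). Il2ra, the CD25 chain of the interleukin-2 receptor, read 10.70, 10.71 and 11.42 in stimulated cells and 2.15 on all 3 unstimulated arrays, at least 357-fold higher (limma adjusted p = 1.21e-19). Gng4, a G protein gamma subunit, read 10.83, 11.53 and 11.77 in stimulated cells and was at background in unstimulated cells, at least 482-fold higher. Rgs1, which dampens chemokine receptor signalling, read 11.43, 10.99 and 11.36 in stimulated and 2.39, 2.66 and 2.66 in unstimulated cells, a change of 8.69 ± 0.36 (limma adjusted p = 4.13e-13). Nr4a3 (8.71 ± 0.27), Bcat1 (7.90 ± 0.60), Cdkn1a (7.83 ± 0.73), Zbed5 and Ifitm2 (7.62 ± 0.78) completed the 12 largest fitted rises with Mir155hg, and Zbed5 was at least 190-fold higher. Bcat1 encodes a branched-chain amino acid transaminase and Ifitm2 a membrane protein of the interferon-induced transmembrane family. That the arrays of the groups do not overlap for these 12 genes was a condition of the ranking. Averaging all probe sets of a gene lowered the changes of Gng4 to 5.77, Bcat1 to 3.20, Nr4a3 to 2.90 and Cdkn1a to 4.92, and each was still called. The other sets of Nr4a3 and a set of Gng4 were at background on all 6 arrays, and such sets lower the mean change.

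Mir155hg is the host transcript of miR-155, a microRNA known for its part in B cell activation and antibody responses. It read 10.75, 9.25 and 10.61 in stimulated cells and 2.33, 2.30 and 2.17 in unstimulated cells, and unstimulated cells were at background. Every stimulated array lay far above every unstimulated array, and the transcript was at least 214-fold higher (limma adjusted p = 6.35e-10). In day 7 germinal center cells it read 2.35, 2.17 and 2.35, also background, and stimulated cells were at least 219-fold higher (limma adjusted p = 6.16e-10). The array measures the host transcript and not the processed microRNA. The mature guide strand that this transcript carries is shown for the seed it pairs with targets through, bases 2 to 8 in capitals. RefSeq places it at chr16:84714143-84714165 on the plus strand of GRCm38.p6.
mmu-miR-155-5p: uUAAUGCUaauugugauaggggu

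The largest falls, ranked under the same conditions, ended close to the floor. Pld4, an endolysosomal exonuclease of the phospholipase D family, read 2.71, 2.71 and 2.80 in stimulated cells, against 13.07, 13.08 and 13.22 in unstimulated cells, a change of -10.38 ± 0.15 (limma adjusted p = 7.08e-20). Itgb7, the beta chain of the gut-homing integrin, read 2.95, 2.95 and 2.79 against 13.04, 12.90 and 12.74, a change of -10.00 ± 0.46 (limma adjusted p = 1.94e-12). These stimulated readings are about at the array medians, so the floor limits how large a fall can be read. Gimap7 (-9.63 ± 0.38), Acp5 (-9.60 ± 0.23), Slc14a1 (-9.09 ± 0.38), Ifi213 (-9.09 ± 0.28), Rasgrp2 (-8.71 ± 0.40) and Ccdc69 (-8.69 ± 0.36) came next. Acp5 encodes a tartrate-resistant acid phosphatase, Slc14a1 a urea transporter, and Rasgrp2 an exchange factor for Rap1 that acts on integrins. Vpreb3 (-8.55 ± 0.34), Cd1d1 (-8.53 ± 0.20), Abcg1 (-8.52 ± 0.53) and Cyp4f18 (-8.50 ± 0.21) closed the 12 largest falls. Cd1d1 presents lipids to natural killer T cells, and Abcg1 exports cholesterol. Ccdc69 fell by 5.63 over the mean of its probe sets and by 2.76 without the less specific sets, and Cyp4f18 fell by 4.25 over the mean. All 12 genes had unstimulated arrays of 10.81 or higher and stimulated arrays of 5.47 or lower.

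**Figure D1:**
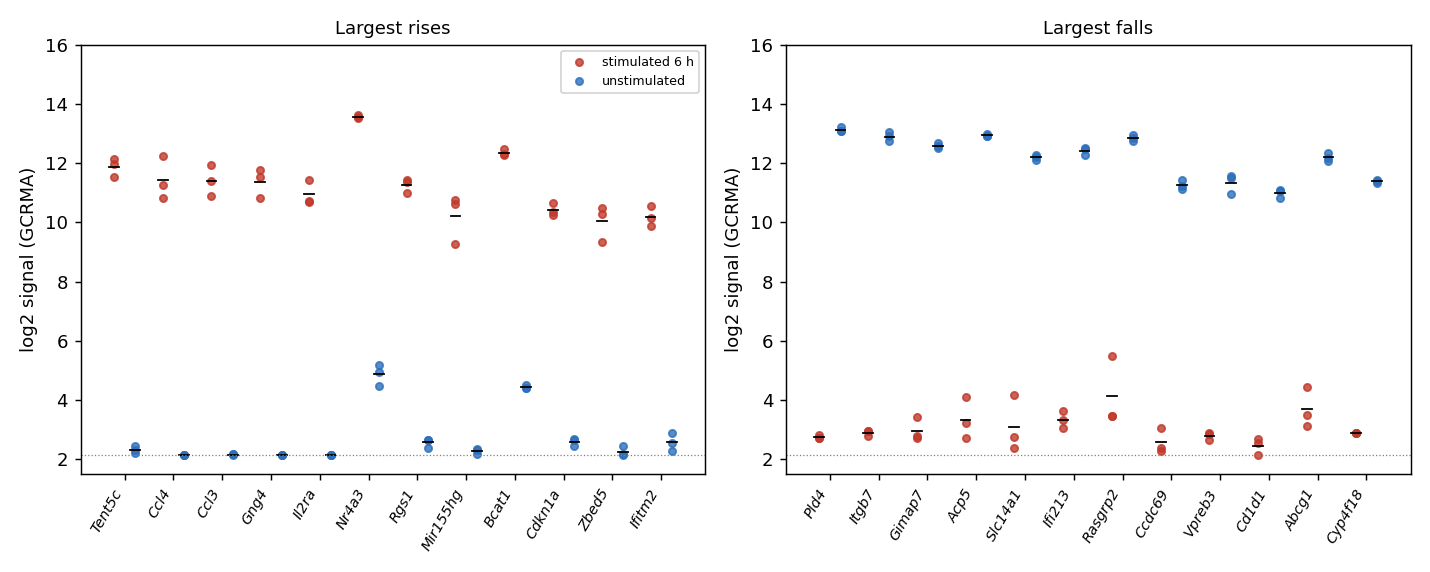
Log2 signal of the 12 largest rises (left) and the 12 largest falls (right) on each array, with stimulated cells left of unstimulated cells for each gene, bars for the group mean and a dotted line at the floor of 2.15. Only genes without overlap between the groups were ranked, and most of the rises start, and the falls end, near the floor.

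The transcription factors of the immediate early response split in both directions at 6 h. Of 19 tested, 6 rose (16.9% of all genes did) and 5 fell (22.4% of all genes did), and the median change was 0.26. With the arrays shifted to the same median, 3 fell. The 3 NR4A orphan nuclear receptors, known antigen receptor targets, all rose. Nr4a1, which encodes Nur77, read 12.44, 12.52 and 12.88 in stimulated and 8.01, 9.06 and 8.71 in unstimulated cells, a change of 4.02 ± 0.36 (limma adjusted p = 1.77e-08). Nr4a3 read 13.52, 13.63 and 13.56 in stimulated and 4.47, 5.17 and 4.94 in unstimulated cells, and Nr4a2 read 10.28, 9.29 and 9.96 against 3.87, 3.51 and 3.57, a change of 6.19 ± 0.29. Egr2, a zinc finger factor, rose by 3.27 ± 0.44, to 14.37, 14.37 and 13.95 in stimulated cells, against 10.97, 10.55 and 11.36. Egr1 was high in both groups, at 13.36, 13.55 and 13.49 in stimulated and 13.18, 12.73 and 12.89 in unstimulated cells, and its difference of 0.53 had a 95% interval of -0.14 to 1.21 (limma adjusted p = 0.168). Nr4a2 over the mean of its probe sets changed by 2.86.

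AP-1 subunits, which pair as Fos with Jun proteins, moved apart. Fosl2, which encodes Fra-2, read 9.66, 9.79 and 9.64 in stimulated cells and 2.23, 2.15 and 2.23 in unstimulated cells, at least 150-fold higher (limma adjusted p = 7.90e-09). Maff, a small Maf factor, rose by 5.54 ± 0.44 (limma adjusted p = 4.07e-09). Fos read 6.59, 6.64 and 6.34 in stimulated cells, against 12.61, 13.53 and 13.52 in unstimulated cells, a change of -6.70 ± 0.43 (limma adjusted p = 2.29e-10). Jun (-3.13 ± 0.62) and the antiproliferative gene Btg2 (-2.60 ± 0.34) fell with it, and the arrays of the groups did not overlap for either. Junb read 6.23 to 7.10 in stimulated and 7.29 to 8.06 in unstimulated cells, a change of -1.0. It was not called when stimulated array 2 (-0.74) or unstimulated array 2 (-0.92) or 3 (-0.85) was left out, nor with the arrays shifted to the same median (-0.68) or after quantile normalization (-0.24). Fos is also known to be induced by the handling of tissue, and that share of the unstimulated level was not tested. Over the mean of their probe sets, Fosl2 changed by 3.81 and Btg2 by -1.56.

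NF-κB is held in the cytoplasm by IκB proteins, several of which are its own targets. Of 19 genes of this pathway tested, 7 rose and 5 fell, against 16.9% and 22.4% of all genes. Their median of -0.02 was 0.30 with the arrays shifted to the same median, where 2 fell. Rel, the c-Rel subunit, read 11.78, 11.59 and 12.01 in stimulated cells and 9.33, 9.72 and 10.01 in unstimulated cells, a change of 2.11 ± 0.25 (limma adjusted p = 9.12e-07). The adaptor Traf1 (1.77 ± 0.20), the deubiquitinase Tnfaip3 (1.73 ± 0.32) and the inhibitor Nfkbie (1.38 ± 0.19) rose as well. Tnfaip3, also called A20, read 12.02, 12.41 and 12.48 against 10.64, 10.85 and 10.22. Its arrays did not overlap, but over the mean of its 2 probe sets the change was 0.93 and was not called. Nfkbia, which encodes IκBα, was near the top of the scale in both groups, at 14.61, 14.61 and 14.64 in stimulated and 14.84, 14.54 and 14.55 in unstimulated cells, and its difference was -0.02 (95% interval -0.35 to 0.30). Rela differed by -0.29 and Nfkb2 by 0.26, and neither was called. Map3k14, the NIK kinase of the alternative arm that CD40 uses, read 3.35, 3.72 and 5.69 in stimulated cells, against 7.90, 8.87 and 8.31 in unstimulated cells. Its change was -4.11 ± 0.43 (limma adjusted p = 1.50e-07), or -2.37 over the mean of its probe sets. Bcl3 (-1.92 ± 0.30) and Birc3 (-1.29 ± 0.13) also fell, and Birc3 was not called with the arrays shifted to the same median.

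**Figure D2:**
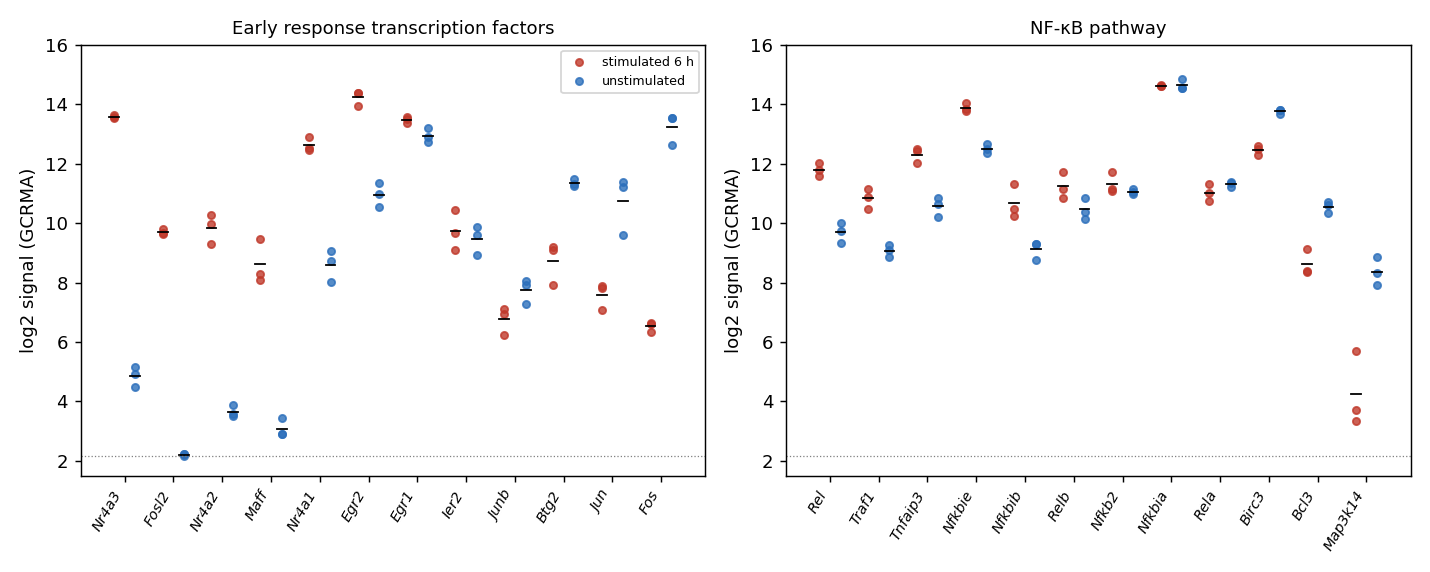
Log2 signal per array of early response transcription factors (left) and NF-κB pathway genes (right), with stimulated cells left of unstimulated cells, bars for group means and a dotted line at the floor. The NR4A genes, Fosl2 and Maff are higher in stimulated cells and Fos is lower, while Egr1 and Nfkbia lie close together in the groups.

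The promoters of the pathway were searched for the κB-like run GGG, any 2 bases, then TTTCC, on either strand, in RefSeq windows of 300 bases (250 before to 50 after each gene start). It was present for 6 of the 17 pathway genes that matched a promoter (35.3%), against 181 of 9102 tested genes (1.99%). These carriers did not all rise. Cyld was called lower (-1.10, but not with the arrays shifted to the same median), and Nfkbia and Nfkb2 were not called. Among all genes that rose the share was 1.89%, and among those that fell it was 2.33%. Both windows below belong to genes that rose, were chosen after their values were seen, and are shown for where the run lies, which is marked in capitals and reads on the opposite strand in each. The Rel window is chr11:23770920-23771219 on the minus strand of GRCm38.p6, with the run starting at position -91 from the gene start. The Tnfaip3 window is chr10:19015361-19015660 on the minus strand, with the run at -12. A match says only that these letters occur there.
Rel: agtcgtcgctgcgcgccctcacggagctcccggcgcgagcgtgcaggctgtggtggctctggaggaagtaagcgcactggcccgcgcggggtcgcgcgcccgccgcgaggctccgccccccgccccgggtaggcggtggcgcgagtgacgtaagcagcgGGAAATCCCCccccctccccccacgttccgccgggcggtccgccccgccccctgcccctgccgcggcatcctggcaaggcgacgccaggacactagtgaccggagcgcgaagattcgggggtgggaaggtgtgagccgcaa
Tnfaip3: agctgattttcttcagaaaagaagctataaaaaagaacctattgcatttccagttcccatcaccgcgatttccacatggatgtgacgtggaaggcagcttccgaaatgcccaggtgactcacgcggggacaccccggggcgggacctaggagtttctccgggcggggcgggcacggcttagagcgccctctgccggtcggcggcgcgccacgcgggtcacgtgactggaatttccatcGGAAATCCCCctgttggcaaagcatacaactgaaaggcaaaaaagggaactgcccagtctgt

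Feedback regulators of MAP kinases and calcium signalling were divided in the same way. Of 18 tested, 6 rose and 6 fell, against 16.9% and 22.4% of all genes. The median was -0.19, or 0.13 with the arrays shifted to the same median. Dusp5, a nuclear phosphatase of ERK, read 10.77, 11.23 and 11.54 in stimulated cells and 5.32, 8.30 and 8.14 in unstimulated cells, a change of 3.93 ± 0.62 (limma adjusted p = 2.32e-05). Spry2 (3.15 ± 0.54), Dusp4 (2.41 ± 0.19) and Spred1 (1.95 ± 0.51), all known brakes on ERK signalling, rose too. Dusp6, the cytoplasmic phosphatase of ERK, read 8.36, 8.93 and 8.03 against 11.83, 11.69 and 11.88 in unstimulated cells, a change of -3.36 ± 0.57 (limma adjusted p = 5.34e-05). Dusp1 (-2.47 ± 0.48) and the calcineurin catalytic subunit Ppp3ca (-1.85 ± 0.14) fell. Spry2 over the mean of its probe sets changed by 1.57.

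In the antigen receptor pathway itself, 1 of 22 genes tested rose, 10 fell and 11 were not called, against 22.4% lower among all genes. The median was -0.80, and 7 fell with the arrays shifted to the same median. Syk, the kinase recruited to the crosslinked receptor, read 8.75, 9.34 and 9.34 in stimulated cells, against 13.05, 13.27 and 13.17 in unstimulated cells, a change of -4.02 ± 0.15 (limma adjusted p = 1.31e-13). Its 3 other probe sets gave -3.72 to -5.60. Bank1, a scaffold for Lyn and the calcium channel of the endoplasmic reticulum, changed by -6.04 ± 0.23, and Rasgrp3, which links diacylglycerol to Ras, by -2.56 ± 0.19. The receptor chain Cd79a read 12.69, 12.74 and 13.00 against 15.07, 14.88 and 14.93, a change of -2.15 ± 0.11. Btk fell by 1.88 ± 0.11. Fyn, a Src family kinase, was the one that rose, to 13.67, 13.40 and 13.48, against 11.87, 11.53 and 11.68 in unstimulated cells, a change of 1.82 ± 0.27 (limma adjusted p = 1.09e-05).

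Of 17 inhibitory receptors and other brakes tested, 13 fell and 1 rose, against 22.4% and 16.9% of all genes. The list median was -1.46, or -1.24 with genes at background placed at their bound, and with the arrays shifted to the same median 9 fell. Pirb, a paired immunoglobulin-like receptor with inhibitory motifs, read 2.58, 2.47 and 2.49 in stimulated cells and 11.03, 10.85 and 10.59 in unstimulated cells, at least 281-fold lower (limma adjusted p = 7.64e-11). Siglecg, an inhibitory sialic acid receptor, read 6.86, 6.68 and 9.03 against 13.87, 13.97 and 13.92, a change of -6.40 ± 0.39. The third stimulated array was the highest of its group and still far below the unstimulated arrays. Dok3 (-3.67 ± 0.23), Cd22 (-3.56 ± 0.17) and the inhibitory Fc receptor Fcgr2b (-2.48 ± 0.20) were also lower. Cd72 was not called, at 14.51, 14.43 and 14.58 in stimulated and 14.23, 14.13 and 14.14 in unstimulated cells (difference 0.34, 95% interval -0.04 to 0.72). Cd5, an inhibitory receptor whose bearers had been removed before the sort, read 6.47, 7.30 and 7.61 in stimulated cells, against 2.39, 2.63 and 2.63 in unstimulated cells, a change of 4.58 ± 0.38 (limma adjusted p = 6.95e-09). In germinal center cells it read 2.46 to 2.63.

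**Figure D3:**
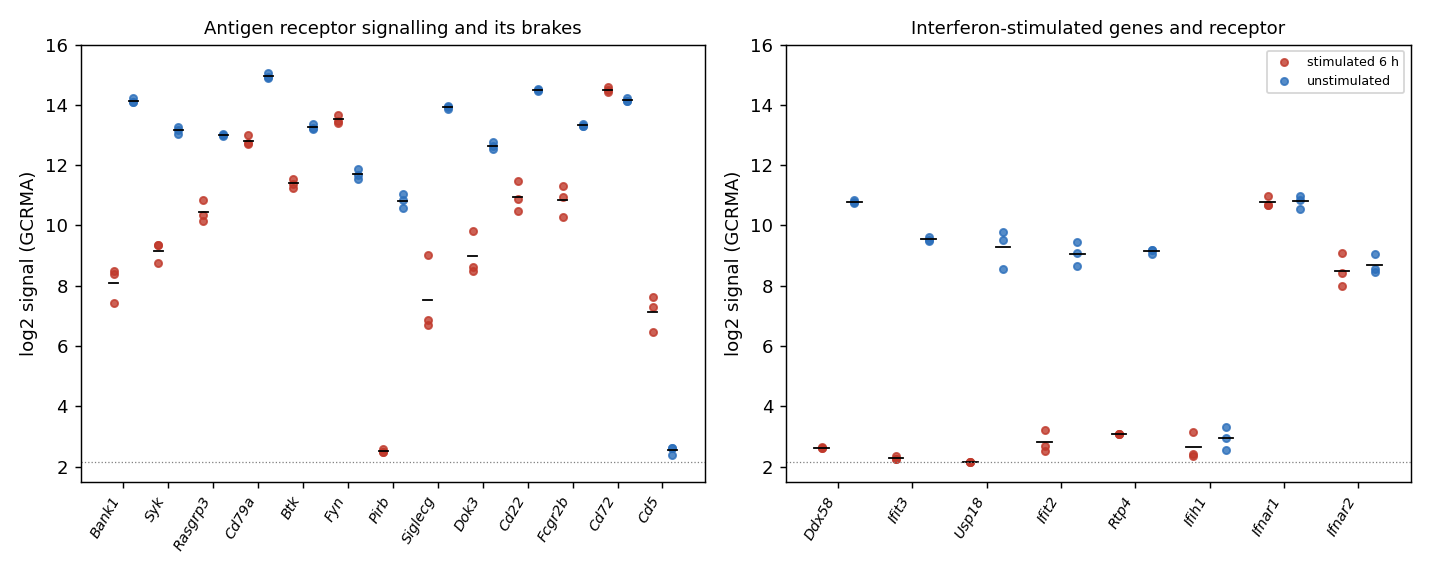
Log2 signal per array of antigen receptor signalling genes and their brakes (left) and of interferon-stimulated genes with the interferon receptor chains (right), with stimulated cells left of unstimulated cells, bars for group means and a dotted line at the floor. Fyn and Cd5 are higher in stimulated cells, the other called genes are lower, and Ifnar1 and Ifnar2 overlap.

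Among surface molecules for T cell contact, 5 of 19 rose and 5 fell, against 16.9% and 22.4% of all genes. The B7 ligand Cd86 read 10.61, 11.04 and 11.44 in stimulated cells and 8.20, 9.12 and 9.05 in unstimulated cells, a change of 2.24 ± 0.28 (limma adjusted p = 1.55e-06). The adhesion receptor Cd44 rose by 2.09 ± 0.15, the semaphorin Sema7a by 2.95 ± 0.26 and the transferrin receptor Tfrc by 1.65 ± 0.25. Cd69, an activation marker, read 12.87, 13.00 and 12.89 in stimulated and 12.64, 12.57 and 12.81 in unstimulated cells and was not called (difference 0.25, limma adjusted p = 0.103). Cd83 differed by 0.76 ± 0.09 (limma adjusted p = 1.13e-06), below the minimum change, and passed it with the arrays shifted to the same median. Icosl, the ligand of ICOS on helper T cells, read 8.29, 7.80 and 8.81 against 14.38, 14.30 and 14.41, a change of -6.06 ± 0.31 (limma adjusted p = 7.94e-12). Slamf1 fell by 8.21 ± 0.39. Averaging probe sets moved Sema7a to 1.56 and Tfrc to 3.29.

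Of 13 genes for antigen presentation on class II molecules, 0 rose and 7 fell, against 16.9% and 22.4% of all genes. The list median was -1.03. The invariant chain Cd74 read 15.50 to 15.59 in stimulated and 15.59 to 15.69 in unstimulated cells, and the class II chains H2-Aa (-0.38), H2-Ab1 (-0.57) and H2-Eb1 (-0.48) differed by less than the minimum change. The class II chain H2-Ea was dim, at 2.27 on every stimulated array, which is background, against 5.53, 4.61 and 4.26 in unstimulated cells, and was at least 4.32-fold lower (limma adjusted p = 3.78e-05). Its other probe sets read 2.15 in both groups, so this fall rests on its brightest set alone, which was itself dim. Over the mean of its probe sets H2-Ea was not called (-0.84). The other 6 genes that fell were regulators and peptide-loading factors. Marchf1, a ubiquitin ligase that removes class II from the surface, read 7.99, 6.22 and 7.21 against 12.50, 12.80 and 12.66 in unstimulated cells, a change of -5.51 ± 0.43 (limma adjusted p = 2.50e-09). H2-Oa, which restrains peptide loading, changed by -4.83 ± 0.31, H2-DMa, which catalyses it, by -3.82 ± 0.16, and the transactivator Ciita by -2.74 ± 0.20. The other probe sets of Ciita gave -3.90 and -7.20.

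The cytokine genes included large changes in both directions. Of 17 tested, 3 rose and 5 fell, against 16.9% and 22.4% of all genes. The rises were Ccl3, Ccl4 and the macrophage growth factor Csf1 (2.21 ± 0.33). Csf1 was dim, its 3 other probe sets were at background on all 6 arrays, and its call was lost with an offset before the logarithm (0.97). Ltb, which encodes lymphotoxin beta, read 3.98, 4.55 and 6.35 in stimulated cells, against 12.46, 12.81 and 12.69 in unstimulated cells, a change of -7.69 ± 0.41 (limma adjusted p = 1.73e-11). Its partner Lta changed by -6.79 ± 0.47, and Il12a by -4.99 ± 0.42. For both lymphotoxin genes the third stimulated array was the highest of its group and lay below all unstimulated arrays. Of 20 cytokine receptors, 2 rose and 8 fell, against 16.9% and 22.4% of all genes. The list median of -0.31 was 0.005 with the arrays shifted to the same median. Il10ra read 2.30, 2.75 and 2.30 in stimulated and 10.71, 10.85 and 10.66 in unstimulated cells, at least 265-fold lower (limma adjusted p = 1.49e-13). Lifr was at least 37.7-fold lower. Il5ra changed by -4.89 ± 0.45 and the interferon gamma receptor chain Ifngr1 by -4.35 ± 0.46. Il6st, the shared gp130 chain, rose by 2.30 ± 0.38, but not over the mean of its 4 probe sets (0.98). That mean also moved Il10ra to -2.76 and Lifr to -1.95. The other sets of Il10ra were at background on all 6 arrays, which makes its mean change smaller. The receptor for BAFF, Tnfrsf13c, read 14.19 to 14.39 in stimulated and 14.49 to 14.70 in unstimulated cells and differed by less than the minimum change.

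Downstream of these receptors, 3 of 17 genes for STATs, their kinases, SOCS inhibitors and Pim kinases rose and 7 fell, with a median of -0.73. Among all genes 16.9% rose and 22.4% fell. Stat5a, a transducer of interleukin-2 signals, read 13.91, 14.03 and 13.93 in stimulated cells, against 12.55, 12.46 and 12.77 in unstimulated cells, a change of 1.36 ± 0.12 (limma adjusted p = 9.66e-09). The Janus kinases Jak1 (-1.57 ± 0.20) and Jak2 (-1.43 ± 0.13) fell, and the interferon transducer Stat2 fell by 3.94 ± 0.21. Socs2 and Pim1 were also called higher. The call for Socs2 was lost without stimulated array 2 (0.91) or unstimulated array 2 (1.69) or 3 (1.63) and over the mean of its probe sets (0.80), and that for Pim1 over the mean of its probe sets (0.62).

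Genes induced by type I interferon were low after stimulation. Of 17 tested, 0 rose and 16 fell, against 16.9% and 22.4% of all genes. The list median was -5.03, and 15 fell with the arrays shifted to the same median. Ddx58, which encodes the RNA sensor RIG-I, read 2.61, 2.65 and 2.62 in stimulated cells and 10.75, 10.83 and 10.77 in unstimulated cells, a change of -8.16 ± 0.38 (limma adjusted p = 2.31e-12). Ifit3 was at least 115-fold lower and the deubiquitinase Usp18 at least 96.3-fold lower. Usp18 read 2.15 on every stimulated array, against 8.55, 9.77 and 9.52. Ifit2 (-6.26 ± 0.23) and Rtp4 (-6.05 ± 0.36) fell as well, and Rtp4 by 3.61 over the mean of its probe sets. Ifih1, which encodes the sensor MDA5, was the 1 gene of the list not called (-0.30). Its means of 2.64 in stimulated and 2.94 in unstimulated cells were both near the floor, which left little room for a fall. The interferon receptor chains were not called either. Ifnar1 read 10.69, 10.67 and 10.98 in stimulated and 10.56, 10.98 and 10.86 in unstimulated cells (difference -0.02, 95% interval -0.50 to 0.46), and Ifnar2 differed by -0.19 (95% interval -0.92 to 0.54). Against day 7 germinal center cells, stimulated cells were lower for 7 of the 17 and higher for 0.

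Toll-like receptors and their adaptors gave 0 rises and 11 falls of 15 tested, against 16.9% and 22.4% of all genes. The list median was -1.57. Tlr1 read 10.43, 10.44 and 10.69 in stimulated and 14.03, 14.17 and 14.11 in unstimulated cells, a change of -3.58 ± 0.13 (limma adjusted p = 8.97e-14). Tlr4, the endotoxin receptor, changed by -4.99 ± 0.80 and Irak3, an inhibitory kinase of the pathway, by -6.14 ± 0.37. Over the mean of its 4 probe sets Tlr4 changed by -1.71. The shared adaptor Myd88 was not called (difference 0.37, 95% interval -0.14 to 0.87).

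Genes that mark the resting recirculating cell fell as a group. In the quiescence list 0 of 23 rose and 14 fell, against 16.9% and 22.4% of all genes. The list median was -1.92, and 14 fell under either rescaling of the arrays. Klf2, a factor that keeps lymphocytes quiet and in circulation, read 7.88, 6.39 and 8.32 in stimulated cells, against 13.00, 13.03 and 12.80 in unstimulated cells, a change of -5.41 ± 0.57 (limma adjusted p = 1.65e-07). Sesn3 (-3.23 ± 0.30), a stress-responsive inhibitor of mTORC1 signalling, the pocket protein Rbl2 (-3.15 ± 0.27) and Klf7 (-2.78 ± 0.17) fell. Tsc22d3 fell by 4.77 ± 0.55 on its brightest probe set and by 1.79 over the mean of its sets, where it was still called. Its other bright set fell by 3.54, and a set near the floor read 1.17 higher. Klf4, also in the list, changed by -1.73 on its brightest probe set and by 1.85 on its other set, which was not dim (9.81 against 7.96). The list counts rest on the brightest set of each gene. All 8 Gimap GTPases tested fell, a family linked to lymphocyte survival, with a median of -2.78. Below Gimap7, Gimap1 read 8.78, 7.80 and 8.43 against 11.60, 11.93 and 11.73.

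Of 18 migration receptors and adhesion molecules, 2 rose and 7 fell, against 16.9% and 22.4% of all genes. The list median of -0.29 was 0.03 with the arrays shifted to the same median. S1pr1, the receptor by which lymphocytes leave lymphoid organs, read 5.70, 6.24 and 6.71 in stimulated and 10.42, 10.71 and 10.22 in unstimulated cells, a change of -4.23 ± 0.57 (limma adjusted p = 3.68e-06). S1pr3, another receptor of the same lipid, moved the other way, to 12.19, 12.44 and 12.75, against 7.95, 8.59 and 8.22, a change of 4.21 ± 0.31 (limma adjusted p = 1.42e-09). S1pr4 (-5.28 ± 0.33), the cannabinoid receptor Cnr2 (-5.33 ± 0.31) and the integrin chain Itga4 (-3.88 ± 0.14) fell. Chemokine receptors that position B cells in and beside the follicle were not called. Ccr7 read 13.80, 13.92 and 14.15 in stimulated and 12.59, 12.72 and 12.63 in unstimulated cells, arrays that do not overlap, with a difference of 1.31 (95% interval -0.20 to 2.82, limma adjusted p = 0.13). That interval rests on the spread pooled over all 8 groups. Cxcr5 differed by -0.44 (95% interval -0.98 to 0.10). Among 13 regulators of G protein signalling, 3 rose and 3 fell, against 16.9% and 22.4% of all genes. Beside the rise of Rgs1, Rgs14 read 4.16, 3.59 and 4.16 in stimulated cells, against 10.30, 10.41 and 10.25 in unstimulated cells, a change of -6.35 ± 0.20 (limma adjusted p = 7.40e-15), and the G protein subunit Gnai2 changed by -2.27 ± 0.16.

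Of 25 factors of B cell identity, 3 were higher and 12 lower, against 16.9% and 22.4% of all genes, and 10 were not called. The list median was -0.84, and 10 were lower with the arrays shifted to the same median. Bcl6, which directs the germinal center program, read 11.51, 11.15 and 11.32 in stimulated cells and 13.75, 13.54 and 13.56 in unstimulated cells, a change of -2.29 ± 0.18 (limma adjusted p = 2.49e-09). Pax5 read 2.16, 3.12 and 3.55 against 5.95, 6.62 and 6.47, a change of -3.40 ± 0.50, or -1.71 over the mean of its probe sets. Hhex (-6.04 ± 0.62), Spi1 (-3.003 ± 0.321), which encodes PU.1, and Ets1 (-2.96 ± 0.17) fell, and the other probe sets of Ets1 gave -5.10 to -5.91. Irf4, a factor that rises with antigen receptor signal strength, read 14.97, 15.15 and 14.94 against 13.96, 13.83 and 13.83, a change of 1.15 ± 0.14 (limma adjusted p = 1.02e-06). This probe set was close to the top of the scale, and the second Irf4 probe set gave 4.65. The AP-1 partner Batf rose by 3.49 ± 0.31 and the E protein inhibitor Id2 by 3.56 ± 0.45. Bach2, which restrains plasma cell differentiation, read 12.55, 12.48 and 12.25 against 12.54, 13.56 and 13.47 and was not called (limma adjusted p = 0.0766), but was called without unstimulated array 1, at -1.09.

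Plasma cell and class switch genes moved both ways, with 5 of 15 higher and 4 lower, against 16.9% and 22.4% of all genes. Prdm1, which encodes Blimp-1, read 5.67, 5.71 and 6.90 in stimulated cells, against 3.66, 3.32 and 3.30 in unstimulated cells, a change of 2.67 ± 0.55 (limma adjusted p = 4.07e-04). These are low readings. Xbp1, a secretory factor, fell by 1.41 ± 0.20 and Mzb1, an endoplasmic reticulum chaperone of antibody-secreting cells, by 2.74 ± 0.11. Ung, the uracil glycosylase of class switching and base repair, rose by 3.08 ± 0.26, to 12.12, 12.45 and 12.53 in stimulated cells. The unfolded protein response, by comparison, gave 0 rises and 1 fall of 19, and 3 rises with the arrays shifted to the same median. Its chaperone Hspa5, or BiP, read 14.12 to 14.20 in stimulated and 13.57 to 13.94 in unstimulated cells.

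**Figure D4:**
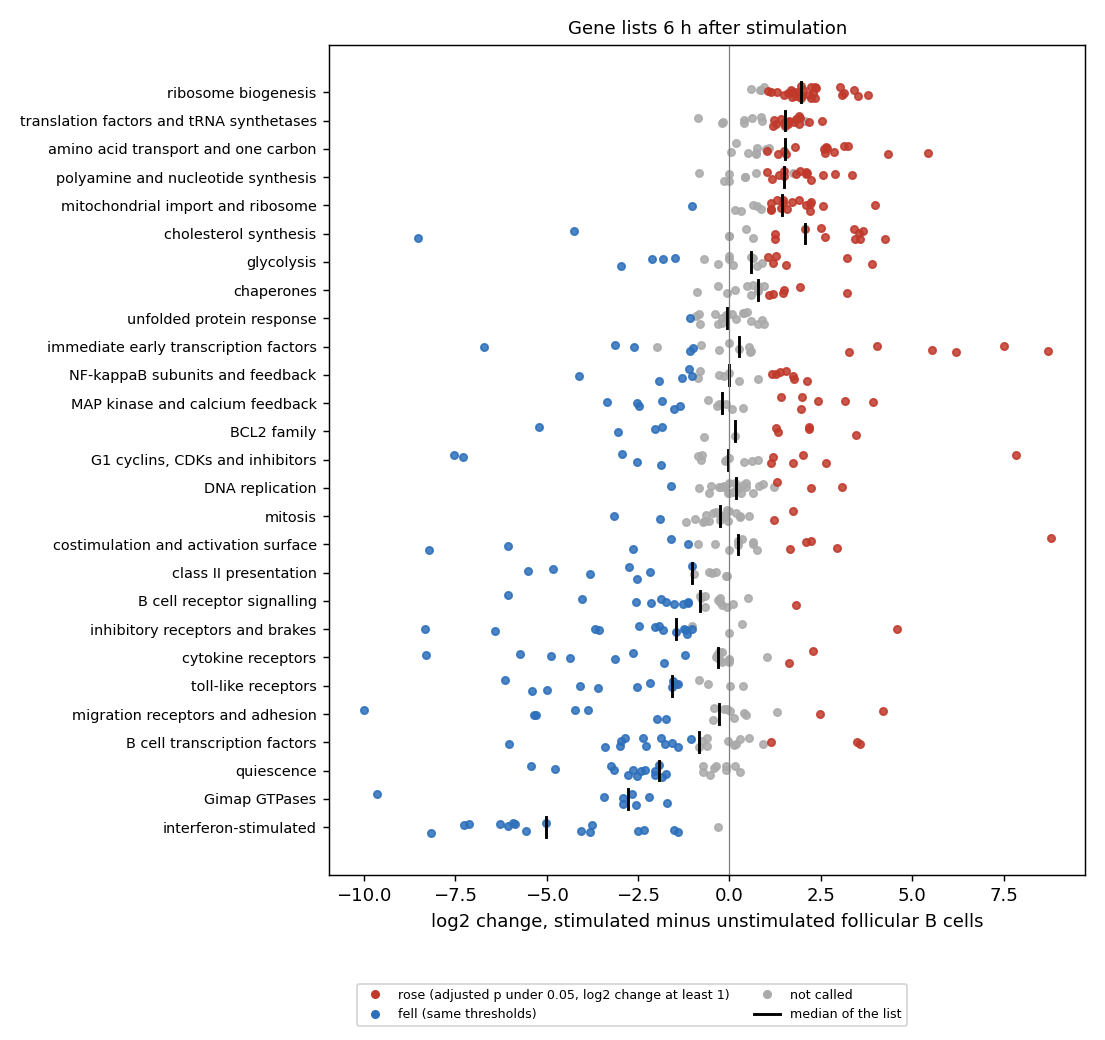
Log2 change of every tested member of 27 gene lists (1 point a gene, stimulated minus unstimulated), coloured by whether it rose, fell or was not called, with a black bar at the list median. Ribosome biogenesis and the other growth lists lie to the right of 0, interferon-stimulated, Gimap and quiescence genes to the left, and DNA replication and mitosis around 0.

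Myc, the growth-driving factor, read 13.80, 13.51 and 14.00 in stimulated cells and 10.14, 10.15 and 10.27 in unstimulated cells. All stimulated arrays lay above all unstimulated ones, and the change was 3.58 ± 0.63 (limma adjusted p = 8.16e-05). In the network of Myc and its partner Max, 1 of 10 genes rose and 4 fell, against 16.9% and 22.4% of all genes. The falls included antagonists of Myc. Mxd4 read 4.0, 4.49 and 5.37 against 11.63, 11.93 and 11.68, a change of -7.13 ± 0.27, and Mxd1 changed by -4.62 ± 0.28. Max itself differed by -0.22 (95% interval -0.55 to 0.11). Over the mean of their probe sets, Mxd4 changed by -3.38 and Mxd1 by -1.70, both still called. Myc in germinal center cells read 8.56, 8.58 and 10.87, which is 4.43 ± 0.63 below the stimulated cells (limma adjusted p = 6.71e-06).

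Ribosome biogenesis genes rose almost throughout. Of 34 tested, 30 rose and 0 fell, against 16.9% higher among all genes, with a median of 1.94, and 31 and 32 rose under the other scalings. Polr1b, the second subunit of RNA polymerase I, read 11.33, 11.13 and 11.83 in stimulated cells and 6.12, 8.54 and 8.26 in unstimulated cells, a change of 3.79 ± 0.42 (limma adjusted p = 2.96e-07). The preribosome factors Nop16 (3.52 ± 0.28), Rrp9 (3.40 ± 0.29) and Rrp12 (3.06 ± 0.34) and the guide RNA protein Nhp2 (3.14 ± 0.16) rose most after it. Of the 4 not called, Npm1 differed by 0.84 ± 0.11 and was already at 14.42 to 14.53 in unstimulated cells. Among translation factors and tRNA synthetases, 18 of 27 rose and 0 fell, with a median of 1.51. The cap-binding protein Eif4e read 12.71, 12.62 and 12.82 against 10.51, 10.56 and 10.58, a change of 2.17 ± 0.18 (limma adjusted p = 4.82e-09). The synthetase complex factor Eef1e1 (2.54 ± 0.46), the initiation factor Eif3b (1.91 ± 0.21) and the synthetases Yars (1.94 ± 0.30) and Eprs (1.90 ± 0.20) completed the 5 largest rises.

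Myc and Max bind the E-box CACGTG, which occurred in 1082 of 9102 promoter windows (11.9%), in 15.7% of those of genes that rose and in 10.1% of those of genes that fell. It occurred in 7 of 29 windows of ribosome biogenesis genes (24.1%) and in 8 of 18 of the translation list (44.4%). Among the other growth lists it occurred in 4 of 18 polyamine and nucleotide windows (22.2%), 4 of 12 cholesterol windows (33.3%), 5 of 21 mitochondrial windows (23.8%), 3 of 18 glycolysis windows (16.7%) and 1 of 15 chaperone windows (6.67%), and in 0 of 18 windows of amino acid transport and one-carbon genes. Shares outside the growth lists varied as well. The E-box occurred in 4 of 9 Myc and Max network windows (44.4%) and in 4 of 15 windows each of MAP kinase feedback and G1 genes (26.7%). It occurred in 1 of 23 quiescence windows (4.35%) and 0 of 13 interferon-stimulated windows. A high share was therefore not limited to lists that rose. The palindrome reads the same on both strands. The following 3 windows of genes that rose, chosen after their values were seen, carry it in capitals. Cdk4 has 4 matches, starting at -172, -118, -98 and -11, in chr10:127063285-127063584 (plus strand). Eif4e has 2, at -228 and -64, in chr3:138527018-138527317 (plus strand), and the rRNA methyltransferase Nop2 (2.23 ± 0.18) has 1, at -60, in chr6:125131633-125131932 (plus strand, all GRCm38.p6, RefSeq). The share in a list is a description of these windows, and binding was not measured.
Cdk4: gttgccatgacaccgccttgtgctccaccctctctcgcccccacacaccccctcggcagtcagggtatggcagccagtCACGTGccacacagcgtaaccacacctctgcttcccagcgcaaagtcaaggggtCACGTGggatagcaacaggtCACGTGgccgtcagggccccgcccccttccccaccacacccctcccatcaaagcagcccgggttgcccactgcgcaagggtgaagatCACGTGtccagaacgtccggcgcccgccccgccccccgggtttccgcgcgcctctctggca
Eif4e: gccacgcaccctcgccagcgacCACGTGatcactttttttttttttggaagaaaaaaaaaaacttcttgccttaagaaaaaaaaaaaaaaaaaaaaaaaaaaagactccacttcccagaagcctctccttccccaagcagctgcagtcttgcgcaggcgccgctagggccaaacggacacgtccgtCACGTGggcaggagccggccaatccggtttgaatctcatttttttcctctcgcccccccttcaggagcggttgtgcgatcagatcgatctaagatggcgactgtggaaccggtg
Nop2: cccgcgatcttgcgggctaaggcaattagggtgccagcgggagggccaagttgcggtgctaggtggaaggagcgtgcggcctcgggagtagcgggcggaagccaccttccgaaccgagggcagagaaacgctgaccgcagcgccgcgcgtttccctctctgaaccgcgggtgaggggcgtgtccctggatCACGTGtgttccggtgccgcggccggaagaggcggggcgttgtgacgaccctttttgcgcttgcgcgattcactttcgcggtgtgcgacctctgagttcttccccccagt

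Supply routes for growth moved with the ribosome genes. Of 22 amino acid transport and one-carbon genes, 14 rose and 0 fell, against 16.9% and 22.4% of all genes. The list median was 1.52. Asns, asparagine synthetase, read 7.39, 8.63 and 9.51 in stimulated cells, against 3.81, 2.17 and 3.23 in unstimulated cells, a change of 5.44 ± 0.59 (limma adjusted p = 2.59e-07). The transporter Slc1a4 (4.34 ± 0.37, or 1.64 over the mean of its probe sets) and the folate enzymes Mthfd2 (3.24 ± 0.20) and Shmt1 (3.13 ± 0.24) followed. Atf4, the factor that drives amino acid response genes, differed by 0.52, below the minimum change. Of 22 polyamine and nucleotide synthesis genes, 14 rose and 0 fell, with a median of 1.49. Srm, spermidine synthase, read 13.17, 13.38 and 13.58 against 9.84, 10.27 and 10.00, a change of 3.34 ± 0.21 (limma adjusted p = 1.49e-10). The pyrimidine enzymes Cad (2.88 ± 0.50), Ctps (2.56 ± 0.24) and Umps (2.22 ± 0.32) rose, but the ribonucleotide reductase subunits Rrm1 and Rrm2, which serve DNA synthesis, differed by -0.02 and -0.84 and were not called.

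Cholesterol synthesis genes gave 11 rises of 17 and 2 falls, against 16.9% and 22.4% of all genes, with a median of 2.06. Fdps read 11.62, 11.47 and 12.18 in stimulated and 7.16, 7.37 and 7.95 in unstimulated cells, a change of 4.26 ± 0.57 (limma adjusted p = 3.56e-06), or 2.13 over the mean of its probe sets. Mvd (3.66 ± 0.26), Idi1 (3.58 ± 0.33), Lss (3.54 ± 0.42) and Sqle (3.42 ± 0.45), enzymes along the same path, rose with it. The 2 that fell, Abcg1 and Abca1 (-4.25 ± 0.28, or -2.05 over the mean of its probe sets), are exporters of cholesterol and not enzymes of its synthesis. Mitochondrial import and ribosome genes rose in 16 of 22 cases, with 1 fall, led by the import channel Tomm40 (3.99 ± 0.64). Tfam was the gene that fell, and its change of -1.01 was not called without stimulated array 1 (-0.96) or unstimulated array 1 (-0.95) or 2 (-0.98), nor with the arrays shifted to the same median (-0.70) or over the mean of its probe sets (-0.58). Glycolysis was mixed, with 6 of 19 higher and 4 lower, against 16.9% and 22.4% of all genes. Hexokinase 2, Hk2, read 11.74, 11.90 and 11.97 against 7.51, 8.10 and 8.35, a change of 3.88 ± 0.20 (limma adjusted p = 8.99e-12), the lactate transporter Slc16a1 rose by 3.22 ± 0.29 and Ldha by 1.55 ± 0.19. The glucose transporter Slc2a1 was not called (difference -0.70, below the minimum change), while Hk1 fell by 2.11, or by 1.33 over the mean of its probe sets and 1.34 after quantile normalization. Of 17 cytosolic chaperones 6 rose and 0 fell, against 16.9% and 22.4% of all genes, and 10 rose with the arrays shifted to the same median.

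Cell cycle genes of G1 were called in both directions, while most of those of S phase and mitosis were not called. Of 20 G1 genes, 6 rose and 5 fell, against 16.9% and 22.4% of all genes. Ccnd2, cyclin D2, read 12.60, 12.99 and 13.01 in stimulated cells, against 10.39, 11.19 and 10.97 in unstimulated cells, a change of 2.02 ± 0.31 (limma adjusted p = 1.96e-05). Its partner kinases Cdk6 (2.63 ± 0.44) and Cdk4 (1.73 ± 0.14) rose. Ccnd3, cyclin D3, read 6.66, 6.57 and 8.04 against 10.03, 10.01 and 10.02 and fell by 2.93 ± 0.33. Cdkn1a, the inhibitor p21, read 10.23, 10.36 and 10.65 against 2.67, 2.43 and 2.65 (limma adjusted p = 3.44e-08), while the INK4 inhibitor Cdkn2d fell by 7.52 ± 0.26 and the factor E2f2 by 7.27 ± 0.19. Averaging probe sets moved Cdk6 to 1.75.

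Of 26 DNA replication genes, 3 rose and 1 fell, against 16.9% higher among all genes, and the median was 0.18. The rises were Ung, Pcna (1.30 ± 0.20) and Gins2. Pcna, the polymerase clamp, read 14.21, 14.35 and 14.22 against 13.06, 12.93 and 12.89. The fall was Pold1, the catalytic subunit of polymerase delta (-1.59 ± 0.23). Gins2 lost its call when any of 4 single arrays was left out (stimulated 1 or 3, unstimulated 2 or 3), with adjusted p values up to 0.108. With the arrays shifted to the same median 6 rose. Mitosis genes gave 2 rises and 2 falls of 23, against 16.9% and 22.4% of all genes. The median change of the list was -0.27, or 0.05 with that shift. Its median level was 3.31 in stimulated and 3.58 in unstimulated cells, near the floor, which limits the falls that can be read. Mki67 read 7.19, 8.01 and 6.20 in stimulated and 8.47, 6.84 and 6.42 in unstimulated cells (difference -0.11, 95% interval -1.16 to 0.94). Aurkb, a mitotic kinase, fell by 3.15 ± 0.53, from a mean of 5.83 in unstimulated cells to 2.68 in stimulated cells, near the floor. Its call was lost with the replicate number as a block in a fit of only the 6 arrays (limma adjusted p = 0.0594). Nusap1 was at least 2.8-fold lower, a call lost without unstimulated array 3 (limma adjusted p = 0.0859) and over the mean of its probe sets (-0.90). The rises, Cdc20 and Ttk, were called with all arrays. Cdc20 was not called when stimulated array 1 or 3 or any unstimulated array was left out (1.06 to 1.33), nor Ttk without stimulated array 1 or 2 or any unstimulated array (1.37 to 1.90). Over the mean of its probe sets neither Cdc20 (0.41) nor Ttk (limma adjusted p = 0.19) was called.

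Day 7 germinal center cells show these probe sets at the levels of dividing B cells. Against them, 2110 genes (18.8%) were higher in stimulated follicular cells and 2603 (23.2%) lower, together 42.1% of those tested. All 23 mitosis genes tested were lower in stimulated cells, with a median of -8.89, and 21 of 26 DNA replication genes were lower, with 0 higher and a median of -2.46. Nusap1, a spindle protein, read 2.19, 2.19 and 2.46 in stimulated cells and 13.30, 13.25 and 12.88 in germinal center cells, and was at least 1400-fold lower in stimulated cells (limma adjusted p = 3.84e-11). Mki67 read 7.19, 8.01 and 6.20 in stimulated and 14.88, 14.90 and 14.63 in germinal center cells, a difference of -7.67 ± 0.50, and the replication licensing factor Cdc6 differed by -9.52 ± 0.997. Ribosome biogenesis went the other way, with 30 of 34 higher in stimulated cells and 0 lower (median 1.69), led by Polr1b at 4.69 ± 0.42. Ccnd2 was 9.53 ± 0.31 higher in stimulated cells, and germinal center cells read 2.63, 4.28 and 3.10. Cholesterol synthesis, by contrast, was higher in 1 of 17 and lower in 3, with a median of 0.26. Tent5c, the largest fitted rise over unstimulated cells among the genes ranked, read 12.22, 12.36 and 11.88 in germinal center cells. It was not called against them (difference -0.28). Bcl6 differed by -2.61 ± 0.18 from germinal center cells, where it read 14.19, 14.00 and 13.62, and Irf4 was 2.36 ± 0.14 higher in stimulated cells. Ccr6 (8.58 ± 0.29) and Ccr7 (4.97 ± 0.72), receptors known to be lost in the germinal center, were higher in stimulated cells, and S1pr2 (-9.65 ± 0.91) and Fas (-6.71 ± 0.53), which mark it, were lower. Cells of the 3 groups also differed in their sort and in immunization, and the part of these in the differences was not tested.

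**Figure D5:**
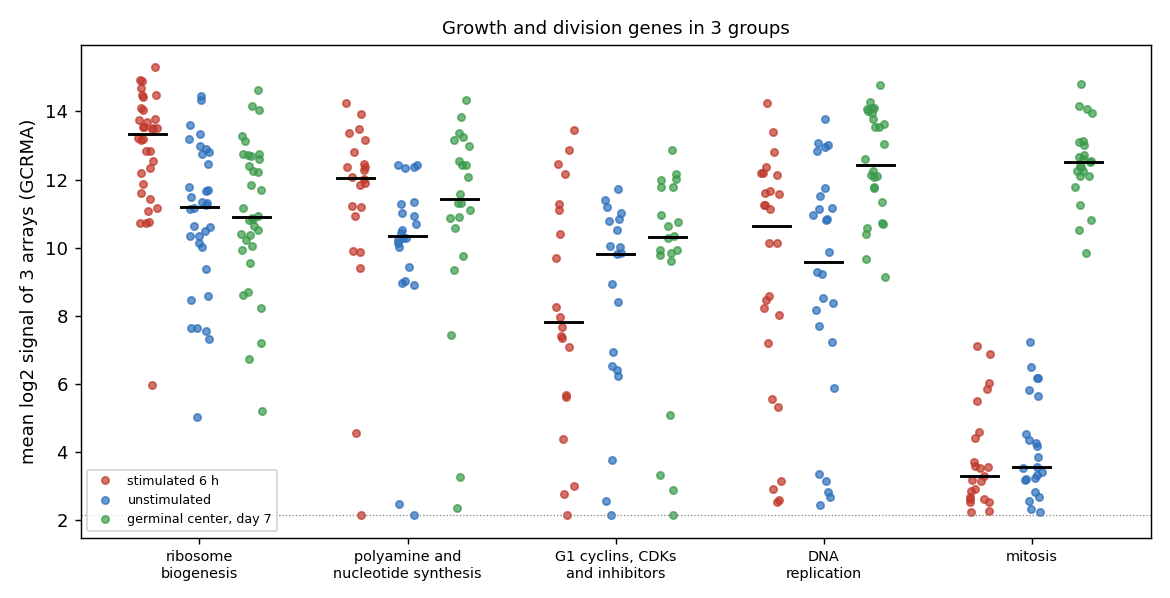
Mean log2 signal of every tested gene of 5 lists (1 point a gene) in stimulated follicular, unstimulated follicular and day 7 germinal center B cells, with a black bar at the list median. The median of ribosome biogenesis genes is 13.35 in stimulated cells and 10.92 in germinal center cells, and that of mitosis genes is 3.31 in stimulated cells and 12.52 in germinal center cells.

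Regulators of survival in the BCL2 family moved both ways. Of 11 tested, 5 rose and 4 fell, against 16.9% and 22.4% of all genes. Bcl2l1, which encodes Bcl-xL, read 7.67, 8.34 and 9.17 in stimulated cells and 5.40, 4.43 and 4.97 in unstimulated cells, a change of 3.46 ± 0.39 (limma adjusted p = 3.84e-07), or 1.81 over the mean of its probe sets. Bcl2 read 7.38, 6.31 and 7.26 against 12.21, 12.32 and 12.04, a change of -5.21 ± 0.31 (limma adjusted p = 6.70e-11), and its 4 other probe sets gave -2.73 to -7.23. Mcl1 differed by -0.70, below the minimum change. Of the death-promoting members, Bcl2l11, or Bim, rose by 2.18 ± 0.20 and Pmaip1, or Noxa, by 1.32 ± 0.35, while Bad fell by 3.04 ± 0.32. With the mean of probe sets, 2 members of the family fell. The κB-like run occurred in 3 of 10 promoter windows of the family (30.0%), against 1.99% of those of all tested genes. Besides Bcl2l1, the carriers were Mcl1, which was not called, and Bbc3. Bbc3 was called higher (2.17), but not with an offset before the logarithm (0.90). The window of Bcl2l1 was chosen after its values were seen and is shown because it carries the run and its gene rose. It is chr2:152830668-152830967 on the minus strand of GRCm38.p6, with the run in capitals at -218.
Bcl2l1: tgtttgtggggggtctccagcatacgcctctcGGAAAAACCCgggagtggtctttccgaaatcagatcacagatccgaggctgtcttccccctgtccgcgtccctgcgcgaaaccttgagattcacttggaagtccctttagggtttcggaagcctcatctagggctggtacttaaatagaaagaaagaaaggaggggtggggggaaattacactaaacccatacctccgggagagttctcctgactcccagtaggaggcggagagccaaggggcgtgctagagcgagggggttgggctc

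Markers of the sort moved with stimulation as well. Fcer2a, the CD23 of the gate, read 9.74, 9.97 and 10.16 in stimulated cells, against 12.92, 13.08 and 12.90 in unstimulated cells, a change of -3.01 ± 0.19 (limma adjusted p = 1.76e-10), and Cr2, the CD21 of the gate, fell by 1.13 ± 0.29, a call lost with the arrays shifted to the same median. Cd93, the AA4.1 antigen that the gate excluded, read 4.03, 4.03 and 5.29 in stimulated cells, against 7.79, 8.86 and 8.84 in unstimulated cells. Of 7 markers of the cells removed before the sort, 1 rose (Cd5) and 3 fell, against 16.9% and 22.4% of all genes. Spn, which encodes CD43, was among the falls and changed by -5.10 ± 0.51, or -2.55 over the mean of its probe sets. That mean also moved Cd93 to -1.47. Lists of markers of other cells had low averages, with many members at the floor and some well above it. The T cell list averaged 2.22 to 2.33 per array in stimulated and 2.23 to 2.24 in unstimulated cells, and 0 of 5 tested were called. The natural killer list averaged 3.12 to 3.33 in stimulated and 3.21 to 3.32 in unstimulated cells, with 0 of 4 called, although Prf1 read 8.84, 8.74 and 9.67 in stimulated and 9.53, 9.69 and 9.61 in unstimulated cells. No erythroid or platelet marker passed the filter on dim genes. The myeloid list averaged 3.19 to 3.67 in stimulated and 3.81 to 4.35 in unstimulated cells. Of its 11 tested genes 3 fell, near the 22.4% of all genes that did. They were Tyrobp (-3.57 ± 0.99), Mpeg1 (-2.91 ± 0.60) and Adgre1 (at least 3.0-fold lower). Tyrobp read 5.45, 7.52 and 8.65 in stimulated cells, against 10.71, 10.85 and 10.77 in unstimulated cells, and Mpeg1 read 5.29, 3.25 and 6.95 against 7.23, 8.61 and 8.37. Each of these calls was lost under an alternative, that of Tyrobp with the replicate block among only the 6 arrays (limma adjusted p = 0.0528), that of Mpeg1 with only the 6 arrays in the fit (0.0792) and that of Adgre1 with an offset before the logarithm (-0.78). Cd68 was called higher (1.65 ± 0.63), at 5.72, 7.53 and 8.64 in stimulated and 3.93, 6.54 and 6.47 in unstimulated cells, but not without stimulated array 2 (1.53) or 3 (0.98) or unstimulated array 1 (0.79), nor with array weights (0.40). Csf1r and S100a8, which define macrophages and neutrophils, were at 2.15 to 2.40 in both groups. The dendritic cell list averaged 4.15 to 4.41 in stimulated and 3.50 to 3.76 in unstimulated cells, with Itgax at 2.15 to 2.17 in both groups. Zbtb46 read 10.25, 9.56 and 9.70 in stimulated cells, against 5.81, 5.81 and 6.00 in unstimulated cells, a change of 3.96 ± 0.45, or 1.39 over the mean of its probe sets. The part of other cells in the changes of Tlr4, Pirb, Csf1 and other genes that such cells also express was not tested.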

How the data were processed

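RNA of sorted spleen B cells was amplified with the Ovation RNA Amplification System V2 and hybridised to Affymetrix arrays, per the labels' protocols. The deposited values are log2 signals normalized with GCRMA, per the submitters' processing notes, with no version given. GCRMA sets dim probe sets to a floor of 2.15, so changes of dim genes are bounded. No deposited pair of arrays held identical values, and with 3 arrays a group their number limits the precision.

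Of 45101 probe sets, 34945 named 1 gene, 932 several, 9211 none and 64 were controls, by the platform annotation updated through RefSeq. Where a gene had several probe sets, the brightest on average stood for it, which gave 18193 genes, and 11208 that exceeded the array median on at least 3 arrays were tested. One group-means model over 24 arrays of 8 groups was fitted in limma 3.58.1 (R 4.3.3) with Benjamini-Hochberg adjustment over all tested genes. Calls needed an adjusted p under 0.05 and a log2 change of at least 1, and errors after ± are standard errors of that model. On simulated data for the comparison with unstimulated cells (11208 genes, 50 changed at each size), 36% of changes of 1, 84% of 1.5, 98% of 2 and 98% of 3 on the log2 scale were called, with 6 false calls. The changed genes were neither dim nor near the top of the scale, and the floor was not simulated. Far fewer genes were changed than were called in the real comparison, so these rates need not hold for it.

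The members, gene lists and printed promoters were chosen with earlier results of these data known. Named genes were the 12 largest rises and falls, 14 index genes and, per list, up to 5 called members in each direction (3 against germinal center cells), beside members that were not called. Nop2 was named for its promoter and Klf4 for its probe sets, after their values were seen. Alternatives changed the scaling, filters, probe sets, threshold, fit and arrays used. Figures were drawn with matplotlib 3.10.9 in Python 3.11.15.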

Additional observations from a re-analysis of the deposited data

How the results depend on the processing

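Settings were varied one at a time, except that the replicate number as a block went with a fit of only the compared arrays. The 1891 genes higher in stimulated than in unstimulated cells became 829 with a log2 change of at least 2, 2923 with no minimum change, 1206 with the filter at the 75th percentile of each array, 1379 with only the 6 compared arrays in the fit and 1243 with the replicate block as well. The 2515 lower genes became 1318 with a change of at least 2. The 2110 genes higher than in germinal center cells became 1021 with a change of at least 2, 1259 with the 75th percentile filter, 1572 with only the 6 compared arrays and 1294 with the replicate block as well, and the 2603 lower genes became 1472 with a change of at least 2. The stricter filter tests fewer genes and the restricted fit uses fewer arrays, which are part of how these counts are made. Leaving out single arrays gave 1684 to 1896 higher and 2278 to 2736 lower genes against unstimulated cells, and 1925 to 2058 higher and 2404 to 2785 lower against germinal center cells. The labels number the arrays but do not say that a number marks a shared mouse or day. Deviations of same-numbered stimulated and unstimulated arrays correlated at 0.211, -0.363 and 0.445, not every array correlated best with its own number, and the arrays were not treated as paired. No call for a named gene turned from a rise to a fall or the reverse under the alternatives run. Of 255 results for single genes, 13 lost their call and 1 gained one with the arrays shifted to the same median, 26 lost it with the mean of probe sets, 10 with an offset of 16 before the logarithm, which compresses changes of dim genes, and 16 with the replicate block. That offset moved Aurkb to -1.77, Cd5 to 2.84, Lifr to -3.66, Pax5 to -2.02, Prdm1 to 1.67 and Tlr4 to -3.25. With the arrays shifted to the same median the unfolded protein response had 3 rises and 0 falls (0 and 1 on the deposited scale), and list medians near 0 changed sign, among them those of NF-κB (0.30 with the shift, -0.02 without), MAP kinase feedback (0.13, -0.19), G1 genes (0.27, -0.05) and mitosis (0.05, -0.27). Several list counts also moved by more than 1.5 times. With the mean of probe sets, cytokine receptors had 0 rises (2 on the deposited scale with the brightest sets), the STAT list 1 (3), and the Myc network 2 falls (4). With the arrays shifted to the same median, 3 markers of the sort fell (5), and against germinal center cells 11 amino acid genes (6) and 17 mitochondrial genes (10) were higher and 5 antigen receptor genes (9) lower in stimulated cells. Mitosis genes had 0 falls with the replicate block and 5 with array weights (2). The floor limits the size of changes for the 165 higher genes at background in unstimulated cells and the 159 lower genes at background in stimulated cells.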
